A study of Mus musculus with 5 samples.

Results

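The transcripts described here belong to 10 genes of the Notch pathway: the receptor genes Notch1 and Notch2, the ligand genes Dll1, Dll3 and Jag1, the glycosyltransferase gene Lfng, and the Hes transcription factor genes Hes1, Hes5, Hes6 and Hes7. They were taken by symbol, from probe sets annotated to 1 of these symbols only. This gave 16 probe sets of 22626, and 10 genes of the 12393 with such a probe set. RNA was taken from whole C57BL6J mouse embryos on gestation day 9.5, freed of decidua, chorion and amnion, and was read on 5 one-colour Affymetrix Mouse Genome 430A arrays. The 3 Folr1+/+ arrays held wild-type embryos. The 2 Folr1-/- arrays held embryos without the folate receptor gene Folr1, from crosses between Folr1+/- parents, with dams on a diet enriched in folate before mating and through pregnancy. Which diet the dams of the Folr1+/+ embryos had is not stated separately. If it was another, diet and genotype cannot be told apart. The arrays are labelled as biological replicates, with no word on whether each stands for 1 embryo or several. The p-values therefore rest on the spread between these arrays, whose small number limits the precision. Limma's SEs, intervals and p-values also borrow variance from other genes of similar signal. They are thus not the spread of 1 gene over its own arrays, and can be narrower than it.

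Notch signalling passes between touching cells. A ligand of the Delta or Jagged family on one cell binds a Notch receptor on the next, proteases free the receptor's intracellular part, and this part joins the DNA-binding protein RBPJ in the nucleus and switches on genes such as those of the Hes repressors. In embryos of this age the pathway is known for keeping neural progenitors from differentiating, for the oscillating clock that cuts the presomitic mesoderm into somites, and for the choice of arterial fate in vessels.

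Of the 10 genes, 5 fell in the Folr1-/- arrays: Notch1, Dll1, Dll3, Hes5 and Hes7. With limma 0 rose. At an unadjusted p under 0.05, 6 members were lower and 1 (Hes1) was higher, where 15.0% of all genes tested were lower and 15.0% higher. Notch2, Lfng, Hes1 and Hes6 did not pass the test, and Jag1 was too dim to be tested with the other genes. The largest change was that of Hes5, whose mean signal was 7.19 times higher in the Folr1+/+ arrays. The test compared log2(signal + 16) between the groups for each of 7436 genes above a filter on dim signals, with limma and a Benjamini-Hochberg adjusted p threshold of 0.05. Over all of these genes 15.0% passed, 6.79% lower and 8.19% higher in the Folr1-/- arrays, so that 5 of the 9 members tested compare with a background of 6.79%. The filter took the mean over all 5 arrays. Hes5 and Lfng, dim in the Folr1-/- arrays, passed it through their Folr1+/+ signals. With no filter, 4 of the 10 members (Notch1, Dll1, Dll3 and Hes5) were lower past the threshold, as were 311 of 12393 genes. The groups did not overlap, with both Folr1-/- arrays below all 3 Folr1+/+ arrays, in 6 of the 9 members tested, against 24.2% of all genes tested. Groups apart in either direction were found in 7 of the 9, against 46.7% of all genes. In a separate fit over all 22626 probe sets with no filter, 5 of the 16 probe sets of the members fell (those named for Notch1, Dll1 and Dll3 and both of Hes5), against a background of 1.62%, and 4.06% passed in either direction. That count depended on single arrays: without Folr1-/- replicate 1 it was 0 of 16, with 7 at an unadjusted p under 0.05, when 90 of all probe sets passed. Leaving out Folr1+/+ replicate 2 or Folr1+/+ replicate 3 left 3, as did the replicate block.

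**Figure D1:**
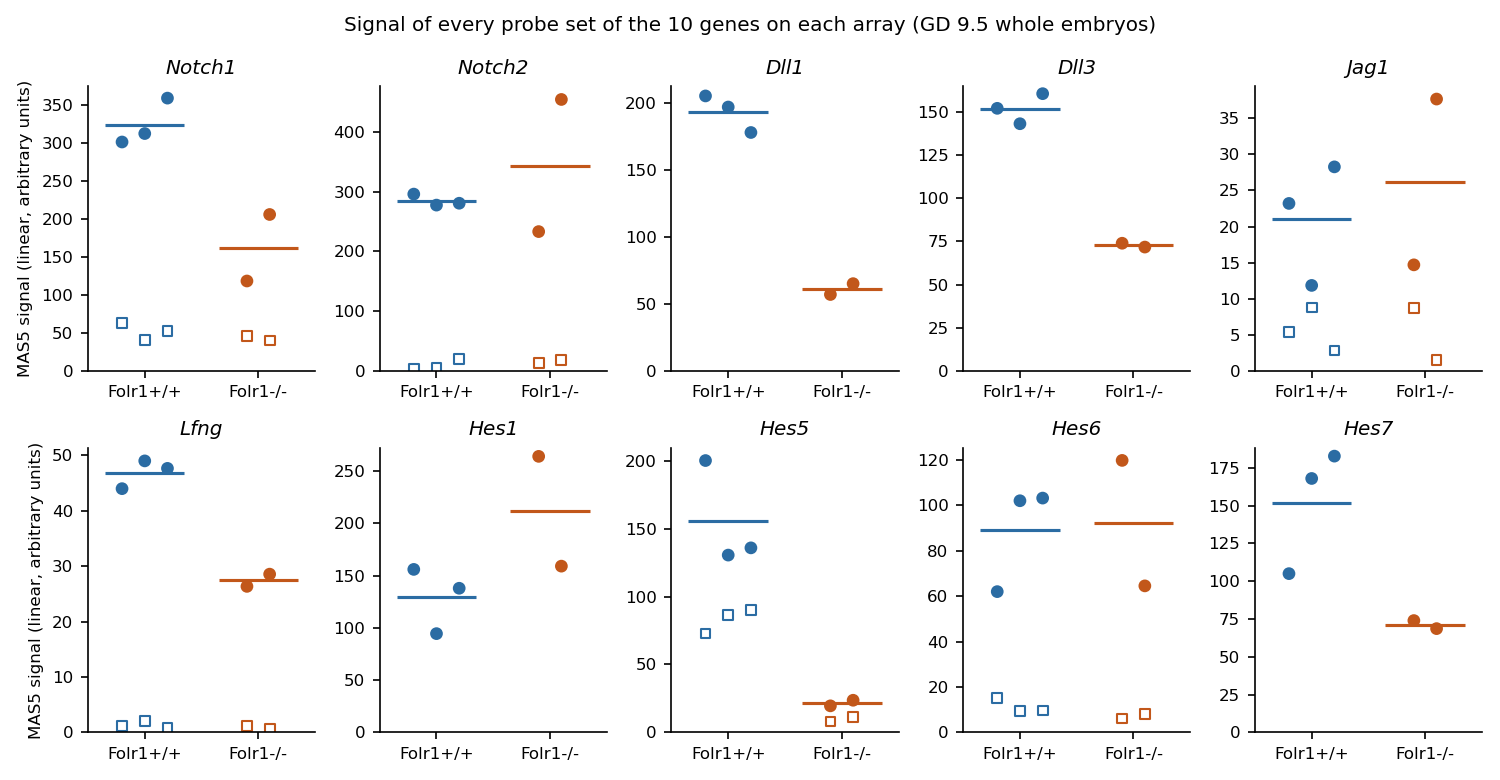
MAS5 signal (linear scale, arbitrary units) of each probe set of the 10 genes on the 3 Folr1+/+ arrays (blue) and the 2 Folr1-/- arrays (orange); filled circles show the probe set that represents the gene, with a line at the group mean, and open squares the other probe set. In Notch1, Dll1, Dll3, Lfng, Hes5 and Hes7 both Folr1-/- circles lie below all Folr1+/+ circles, and in Hes1 both lie above.

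Of the receptor genes Notch1 fell and Notch2 did not pass. Notch1, the main receptor of the somite clock and a receptor of the neural tube, read 302, 313 and 360 in Folr1+/+ replicates 1 to 3 and 119 and 206 in Folr1-/- replicates 1 and 2. All Folr1+/+ values lay above both Folr1-/- values, although the Folr1-/- arrays were themselves far apart. The log2 fold change, here always Folr1-/- minus Folr1+/+ on the log2(signal + 16) scale, was -0.97 ± 0.21 (SE) for Notch1, and limma's adjusted p was 0.0089. The dimmer probe set of Notch1 had signals of 62.8, 40.3 and 52.7 against 46.2 and 40.04, which overlapped, and its fold change was -0.19 with a 95% interval of -0.71 to 0.34. The 2 probe sets thus disagree, and with their mean the fold change was -0.58. Without Folr1-/- replicate 1 the call of Notch1 was lost (-0.61, adjusted p = 0.13; the 15 other settings spanned 0.0047 to 0.13).

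Notch2 read 296, 277 and 280.5 in the Folr1+/+ arrays, the tightest of the 10 genes in relative terms, and 233 and 454 in the Folr1-/- arrays. One Folr1-/- array thus lay below and the other above every Folr1+/+ array. The fold change was 0.19 ± 0.23, with a 95% interval of -0.31 to 0.68 and an adjusted p of 0.63, and leaving out Folr1-/- replicate 1 gave 0.65, while leaving out Folr1-/- replicate 2 gave -0.27. In the dim second probe set of Notch2 the signals were 3.69, 5.17 and 19.3 against 13.5 and 17.9. Within each array, the log2 value of Notch1 relative to that of Notch2 was -1.07 and -1.26 in the Folr1-/- arrays when the Folr1+/+ mean is set to 0, with an SD of 0.16 between the Folr1+/+ arrays. The exact permutation test of this difference, 2-sided, gave p = 0.1, the smallest that 3 arrays against 2 allow, and 0.15 after adjustment over the 3 such differences computed. The Folr1-/- array with more Notch1 signal was also the one with more Notch2 signal.

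Both Delta ligand genes fell, with narrow groups. Dll1, a Notch ligand of the presomitic mesoderm and of new neurons, had signals of 205, 197 and 178 against 57.1 and 65.2. Its fold change was -1.44 ± 0.17 (adjusted p = 0.00023), and only 0.39% of the genes tested had a lower one. Dll3, a ligand of the somite clock that dampens Notch signalling in the cell that makes it, had signals of 152, 143 and 161 against 73.9 and 71.7. Both groups of Dll3 were narrow, with SDs of 8.70 and 1.57, and the fold change was -0.92 ± 0.17 (adjusted p = 0.0036). Dll1 and Dll3 passed in each of the 15 other settings, Dll1 with fold changes of -1.65 to -1.04 and Dll3 with -1.05 to -0.66. Each has 1 probe set, so neither has a second measurement on the array.

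Jag1, a ligand of the other family, was dim and uneven. Its brighter probe set read 23.2, 11.8 and 28.3 against 14.7 and 37.7, which overlapped. Its mean log2 value ranked at percentile 33.8 of the 12393 genes, under the filter at percentile 40. In the fit over all probe sets its fold change was 0.16 with a 95% interval of -0.58 to 0.89 (adjusted p = 0.84). Signals this near the pseudocount compress a fold change, so the interval does not bound the change in signal. The other probe set of Jag1 had signals of 1.497 to 8.79 over the 5 arrays.

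Lfng encodes Lunatic fringe, which adds sugar to Notch receptors and so changes how they answer to Delta and Jagged ligands. Its signals were 44.0, 49.0 and 47.6 against 26.3 and 28.6. The groups were narrow and did not overlap, but the signals were low, and the fold change of -0.53 ± 0.20 did not pass (adjusted p = 0.089, 95% interval -0.96 to -0.11). With no intensity trend in the variance model it did (adjusted p = 0.048, range 0.048 to 0.34 over 13 other settings). The second probe set of Lfng read 0.665 to 2.01 over all arrays, far under the pseudocount.

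Of the Hes genes, Hes5 and Hes7 fell, while Hes1 and Hes6 did not pass. HES1, HES5 and HES7 are repressors of the basic helix-loop-helix class and known Notch targets, HES7 mainly in the somite clock and HES5 mainly in neural progenitors, while HES6 is a relative that opposes HES1 and is not driven by Notch in the same way. In the RefSeq table of promoters (GRCm38.p6), 9 of the 10 genes had 11 windows. Hes1 had no window there, so its promoter was not searched. The letters GTGGGAA, the core that RBPJ is known to bind, were searched on both strands in the 250 bases before each start. They were in 3 of the 11 windows, those of Hes5, Hes7 and Lfng, and in 5.42% of all 32851 windows of that length. The shorter TGGGAA, which every GTGGGAA holds, was in the same 3 windows and in 21.6% of all windows. These 3 sequences are shown because they hold the letters of the pathway's own DNA-binding protein. They are printed in the direction of transcription, ending at the base before the start, with capitals marking each TGGGAA or GTGGGAA or its reverse complement.
Hes5, chr4:154960673-154960922, plus strand: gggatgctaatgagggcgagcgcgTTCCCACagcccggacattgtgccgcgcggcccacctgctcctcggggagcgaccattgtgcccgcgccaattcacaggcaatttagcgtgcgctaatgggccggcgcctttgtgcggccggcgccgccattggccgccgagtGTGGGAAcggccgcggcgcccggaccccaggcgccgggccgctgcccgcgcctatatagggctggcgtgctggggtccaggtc
Hes7, chr11:69120203-69120452, plus strand: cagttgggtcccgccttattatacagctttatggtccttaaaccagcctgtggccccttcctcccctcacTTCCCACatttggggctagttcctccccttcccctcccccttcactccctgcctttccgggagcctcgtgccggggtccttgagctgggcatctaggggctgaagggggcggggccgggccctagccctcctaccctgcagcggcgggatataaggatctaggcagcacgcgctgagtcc
Lfng, chr5:140607091-140607340, plus strand: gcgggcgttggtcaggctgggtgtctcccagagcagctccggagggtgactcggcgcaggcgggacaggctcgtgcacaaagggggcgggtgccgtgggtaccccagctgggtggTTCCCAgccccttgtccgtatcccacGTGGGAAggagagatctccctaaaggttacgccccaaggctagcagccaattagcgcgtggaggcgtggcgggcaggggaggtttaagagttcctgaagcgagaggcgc
The Hes5 window holds GTGGGAA once on each strand, with first letters 226 and 83 bases before the start. In the Hes7 window it begins 180 bases before the start and in the Lfng window 109 bases before it. A match is a run of letters and no evidence of binding, and of the 3 genes Hes5 and Hes7 fell while Lfng did not pass. Notch1, Dll1 and Dll3, which also fell, have neither motif in their windows. Among other pathway genes, GTGGGAA was also in windows of Psen2, Spen and Hey2, which did not pass. Of those that fell, Nrarp had neither motif and Rbpj had TGGGAA only.

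Hes5 read 200.1, 131 and 136 in the Folr1+/+ arrays and 19.6 and 23.7 in the Folr1-/- arrays. The lowest Folr1+/+ signal was far above both Folr1-/- signals. The fold change was -2.17 ± 0.21 (adjusted p = 5.7e-05), the 10th lowest of the 7436 genes tested. This probe set carries the suffix x_at, which marks probes that can also match other transcripts. The second probe set of Hes5, without that suffix, had signals of 72.9, 86.4 and 90.1 against 8.03 and 11.3, and in the fit over all probe sets its fold change was -1.95 ± 0.21 (adjusted p = 0.0037). Both probe sets of Hes5 thus separated the groups, while their order of the Folr1+/+ arrays differed. As the Folr1-/- signals lie near the pseudocount of 16, the size depends on it: with a pseudocount of 64 the fold change was -1.34 and with 1 it was -2.77. Hes5 passed in all 14 other settings in which it was tested.

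Hes7 had signals of 105, 168 and 183 against 74.0 and 68.6. The Folr1+/+ arrays spread widely, with replicate 1 nearer to the Folr1-/- arrays than to the other two, and the Folr1-/- arrays were close together. The fold change was -0.91 ± 0.22 (adjusted p = 0.017). This is the least secure of the 5 calls: it was lost without Folr1+/+ replicate 3 (-0.77, adjusted p = 0.077), without Folr1-/- replicate 1 (-0.96, 0.11), without Folr1-/- replicate 2 (-0.87, 0.11) and with no filter on dim genes (0.061), within a range of 0.0035 to 0.11. In the fit over all probe sets it did not pass either (adjusted p = 0.078), where Notch1 passed narrowly (0.0499).

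Hes1 read 156, 94.6 and 138 in the Folr1+/+ arrays and 264 and 159 in the Folr1-/- arrays. Both Folr1-/- values lay above all others, but Folr1-/- replicate 2 was above Folr1+/+ replicate 1 by only a small margin. The fold change was 0.63 ± 0.24 and did not pass (adjusted p = 0.099, 95% interval 0.11 to 1.15). Leaving out Folr1-/- replicate 1 gave 0.29, and leaving out Folr1-/- replicate 2 gave 0.97. With the replicate number as a block Hes1 passed (0.68, adjusted p = 0.048, range 0.048 to 0.61). Within the arrays, the log2 value of Hes5 relative to that of Hes1 was -3.22 and -2.38 in the Folr1-/- arrays on the same scale, with an SD of 0.23 between the Folr1+/+ arrays (exact permutation test, 2-sided, p = 0.1, 0.15 adjusted). For Hes7 relative to Hes1 the difference was -1.54 (exact permutation test, 2-sided, p = 0.2, 0.2 adjusted), with groups that did not overlap. The limits given for Notch1 relative to Notch2 hold for both differences.

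Hes6 had signals of 62.0, 102 and 103 against 119.8 and 64.5, which overlapped. Its fold change was 0.02 ± 0.26, with a 95% interval of -0.55 to 0.58 (adjusted p = 0.97), and its sign turned with quantile normalization and with the mean of its probe sets. The second probe set of Hes6 had signals of 15.2, 9.48 and 9.64 against 6.16 and 8.12, with a fold change of -0.24 and a 95% interval of -0.66 to 0.18. That second set was dimmer than the pseudocount on all arrays.

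Few other genes of the pathway passed. Of 51 other Notch pathway genes in a list of ligands, receptors, enzymes, cofactors and targets, 42 had a probe set with 1 symbol and 35 were bright enough to test. Of these 35, 3 fell, 0 rose and 32 did not pass, so that 8.57% fell beside 6.79% of all genes tested. At an unadjusted p under 0.05, 6 of the 35 were lower and 1 higher by limma, beside 15.0% of all genes in each direction. Their median fold change was -0.12, beside -0.02 for all genes tested. The 3 were Rbpj, Mfng and Nrarp.

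**Figure D2:**
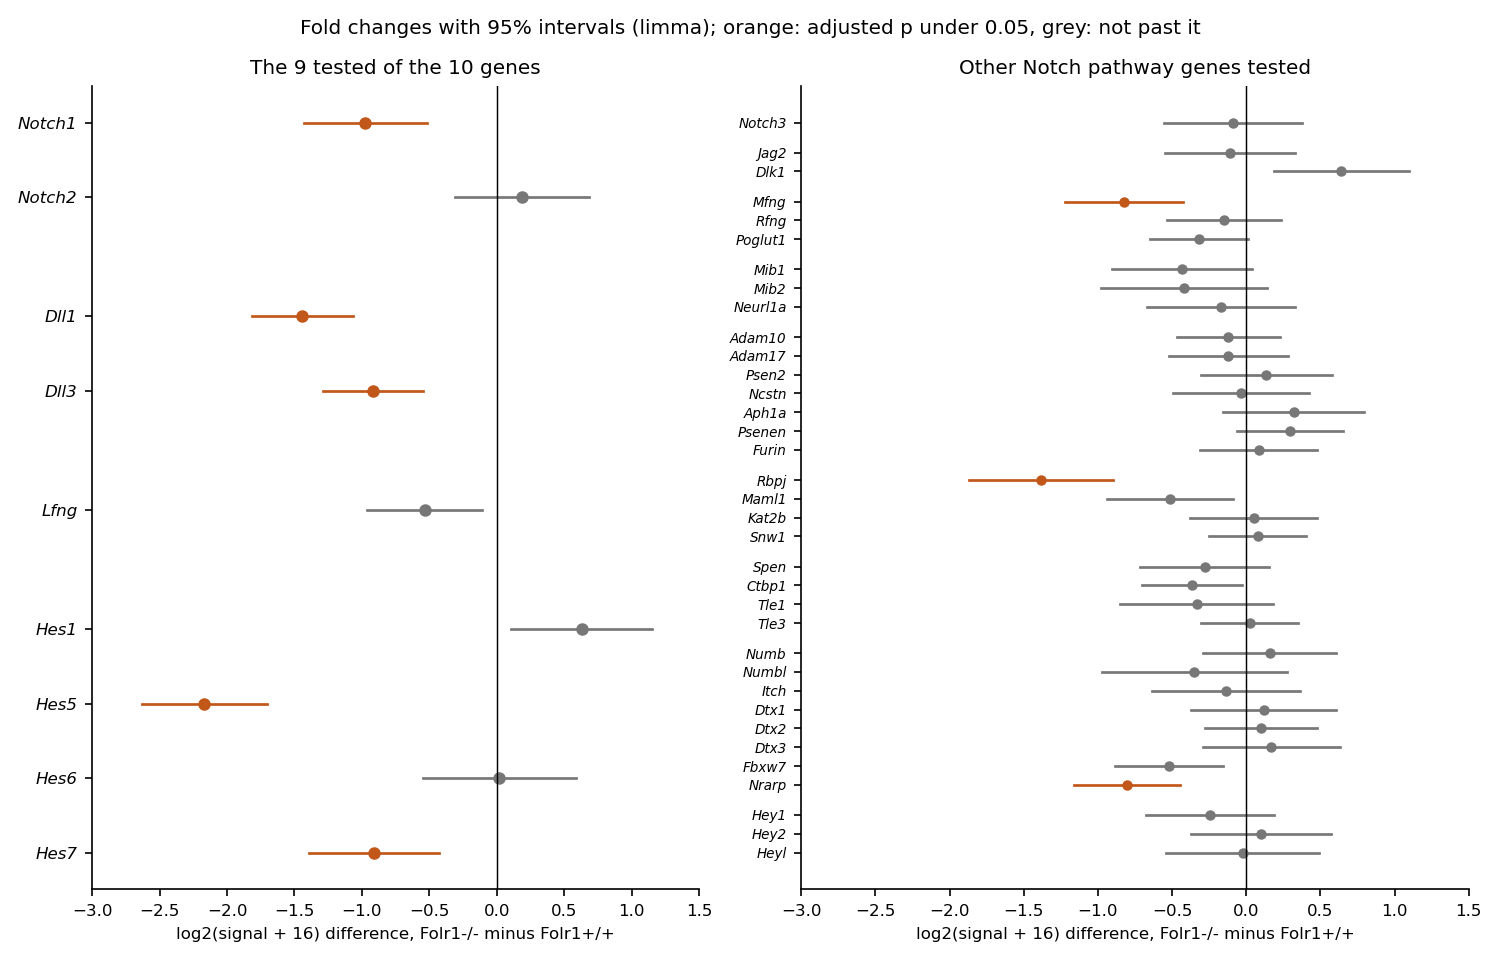
Fold change on the log2(signal + 16) scale, Folr1-/- minus Folr1+/+, with its 95% interval (limma) for the 9 tested members (left) and the 35 other Notch pathway genes tested (right), grouped by role; orange marks an adjusted p under 0.05. Hes5 lies farthest to the left at -2.17, and on the right Rbpj stands apart at -1.39.

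Rbpj, which encodes the DNA-binding protein that Notch activates, had signals of 197, 322 and 303 against 78.4 and 109. The groups did not overlap, and the fold change was -1.39 ± 0.22 (adjusted p = 0.0016), past the threshold in all 15 other settings. The second probe set of Rbpj had signals of 85.5, 90.1 and 67.0 against 38.7 and 73.03. Here the groups overlapped, and in the fit over all probe sets its fold change of -0.47 did not pass (adjusted p = 0.37). Nrarp, a Notch target that feeds back to limit the pathway, had signals of 235, 213 and 252 against 122 and 131. Its groups lay well apart, with a fold change of -0.80 ± 0.16 (adjusted p = 0.0065), lost without Folr1-/- replicate 1 (-0.76, adjusted p = 0.073, range 0.0043 to 0.073). In the second probe set of Nrarp the signals were 67.4, 53.1 and 68.03 against 36.9 and 34.4. These did not overlap either, but in the fit over all probe sets the fold change of -0.61 did not pass (adjusted p = 0.17).

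Mfng, which encodes Manic fringe, a relative of Lunatic fringe, had signals of 86.7, 95.7 and 99.99 against 49.7 and 42.7. The fold change was -0.82 ± 0.18 (adjusted p = 0.011). The call of Mfng was lost without Folr1+/+ replicate 3 (-0.79, adjusted p = 0.051), without Folr1-/- replicate 1 (-0.91, 0.065), without Folr1-/- replicate 2 (-0.74, 0.090) and when the filter at the 60th percentile left it untested, and its fold change was -0.52 with a pseudocount of 64 (range of adjusted p 0.0075 to 0.090). Among the other receptors and ligands, Notch3 (-0.09 ± 0.21), Jag2 (-0.11 ± 0.20) and the non-classical ligand gene Dlk1 (0.64 ± 0.21, adjusted p = 0.060) did not pass. Dlk1 passed under median centring, under the replicate block and after adjustment for the Actb 3'/5' ratio (0.73, 0.79 and 0.69, lowest adjusted p 0.033, highest over all settings 0.26).

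Of the 7 tested genes for the proteases that cut Notch, 0 passed by limma and 0 had an unadjusted p under 0.05, with fold changes between -0.12 (Adam10) and 0.32 (Aph1a). Psenen, a subunit of gamma-secretase, had 0.30 ± 0.16. The ubiquitin ligase genes Mib1 and Mib2, whose products make ligands active, had -0.43 ± 0.22 and -0.42 ± 0.26. The corepressor genes Ctbp1 and Tle1 had -0.36 ± 0.15 and -0.33 ± 0.24, and the Hes relatives Hey1 and Hey2 -0.24 ± 0.20 and 0.10 ± 0.22. The 95% interval of Mib2 reached down to -0.98 and that of Aph1a up to 0.80, so for Mib2 a fall of the size measured for Dll3 lies inside it.

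Marker genes of tissues that use Notch differed between the same arrays. Of 12 neural progenitor genes 7 were tested and 6 fell, among them Zic1 (-2.82 ± 0.19), Pax6 (-1.84 ± 0.22) and Sox2 (-1.55 ± 0.19). Fabp7 did not pass (0.39 ± 0.22), with both Folr1-/- signals above all Folr1+/+ signals. The summed signal of the 12 was 1158 to 1210 in the Folr1+/+ arrays and 375 to 408 in the Folr1-/- arrays. Of 11 somite genes 5 were tested and all 5 fell, among them Meox1 (-1.66 ± 0.32), Tcf15 (-1.50 ± 0.18) and Pax3 (-1.26 ± 0.18), with a summed signal of 719 to 909 against 226 to 313. Of 13 presomitic mesoderm and segmentation genes 5 were tested. Cyp26a1, the gene of an enzyme that breaks down retinoic acid, rose (0.67 ± 0.17), while Tbx6, Wnt3a, Axin2 and Ripply3 did not pass, although in Wnt3a and Axin2 both Folr1-/- signals were below all Folr1+/+ signals. The summed signal of the 10 on the array overlapped, at 669 to 742 against 714 to 730, and without Cyp26a1 it did not, at 517 to 610 against 485 to 495. The markers of early neurons were mostly too dim, with 2 of 12 tested, of which Isl1, a motor neuron and heart factor, rose (0.89 ± 0.18) and Stmn2 did not pass, and a summed signal of 373 to 435 against 378 to 464. Without Isl1 the sum of the other 10 was 237 to 262 against 111 to 137. These sums without the genes that rose, here and for endothelium, were added after the values were seen. Leaving out only genes that rose can shift a sum only towards lower Folr1-/- signal. Groups that lie apart in such a sum are therefore no test of a fall. In bulk RNA of whole embryos, fewer cells of a type and less RNA per cell cannot be told apart.

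**Figure D3:**
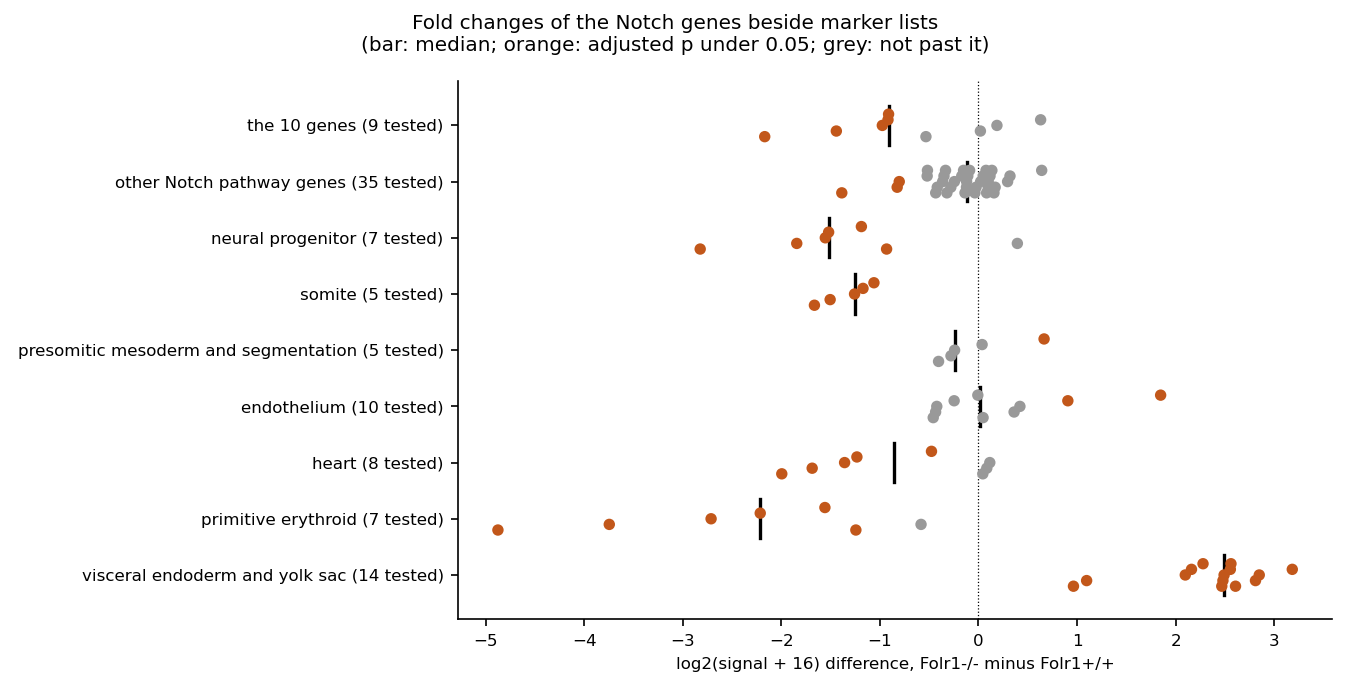
Fold change on the log2(signal + 16) scale of each tested gene of the 10 members, the other Notch pathway genes and the marker lists; black bars are medians and orange points passed the test. The members have values from -2.17 to 0.63, with 5 of 9 past the threshold, while the 14 tested genes of visceral endoderm and yolk sac all lie to the right, from 0.96 to 3.18.

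Endothelial genes, where Notch4 and Dll4 are active, had 2 higher (Sox17, 1.85 ± 0.21, and Nrp1, 0.91 ± 0.18) and 0 lower of 10 tested. At an unadjusted p under 0.05 by limma, 3 were higher and 0 lower. The summed signal of the 12 listed was 1626 to 2060 against 2314 to 2577. Without Sox17 and Nrp1 the sums overlapped, at 1245 to 1678 against 1392 to 1478. In Eng and Esam both Folr1-/- signals were below all Folr1+/+ signals, and in Tek and Sox18 both were above. The 8 endothelial genes that did not pass had fold changes from -0.46 (Eng) to 0.42 (Tek). Notch4 and Dll4 themselves were under the filter, with signals of 20.4 to 24.5 against 28.4 to 28.8 and of 17.4 to 30.5 against 12.7 to 14.1. Visceral endoderm and yolk sac genes rose in all 14 tested of 15 listed, and their summed signal was 2588 to 3604 against 17682 to 17875, with the apolipoprotein gene Apoa4 at 3.18 ± 0.19. The 2 tested of 6 trophoblast and decidua genes, Plac1 and Prl8a2, rose as well (1.44 ± 0.38 for Prl8a2). The summed signal of the 3 on the array was 121 to 131 against 317 to 419. Prl8a2 read 13.6 to 23.2 against 143 in Folr1-/- replicate 1 and 34.6 in Folr1-/- replicate 2, so the size of its rise rests mostly on 1 array. Tpbpa was under the filter, with groups that overlapped. Primitive erythroid genes fell in 6 of 7 tested of 10 listed, the embryonic globin gene Hbb-y by most (-4.87 ± 0.60). Their summed signal was 5380 to 6318 against 200.2 to 614. Heart genes fell in 5 of 8 tested, Myl2 by most (-1.99 ± 0.20), with a summed signal of 6002 to 6741 against 3734 to 4135. The other 3 heart genes, Myl7 (0.04 ± 0.17), Tnnt2 (0.08 ± 0.14) and Nkx2-5 (0.12 ± 0.23), did not pass. No marker was listed at 0 on any array. Of 5 sex-linked genes 3 were tested: Xist, which silences the second X chromosome, had a fold change of 3.67 ± 0.24, and the Y-linked Eif2s3y and Kdm5d had -2.88 ± 0.53 and -2.20 ± 0.31. The signals of Xist were 25.0 to 35.7 against 419 and 770.4, and those of Eif2s3y 300.3 to 372 against 104 and 3.13. Folr1-/- replicate 1 thus had signal of both Xist (419) and Eif2s3y (104). Whether it held RNA of both sexes was not tested. Sex-linked transcripts thus differed with genotype in these arrays, and the sex of the embryos and genotype cannot be told apart. The part of these markers in the changes of the Notch genes was not tested.

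The signal of Folr1 did not pass the test (-0.07 ± 0.20, adjusted p = 0.86), and as the sources used here do not say which part of the gene was removed, its probe set does not check the genotype. Every direction given here therefore rests on the labels. Over genes, arrays correlated at 0.971 to 0.982 within groups and at 0.926 to 0.949 between them. The Actb 3'/5' signal ratio, which rises with shortened RNA, was 21.1 to 39.5 in the Folr1+/+ arrays and 22.8 to 30.5 in the Folr1-/- arrays, and the 5 members past the threshold passed with it as a covariate. Of all changed genes 54.7% were higher in the Folr1-/- arrays, and 69.3% with each array centred on its median.

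**Figure D4:**
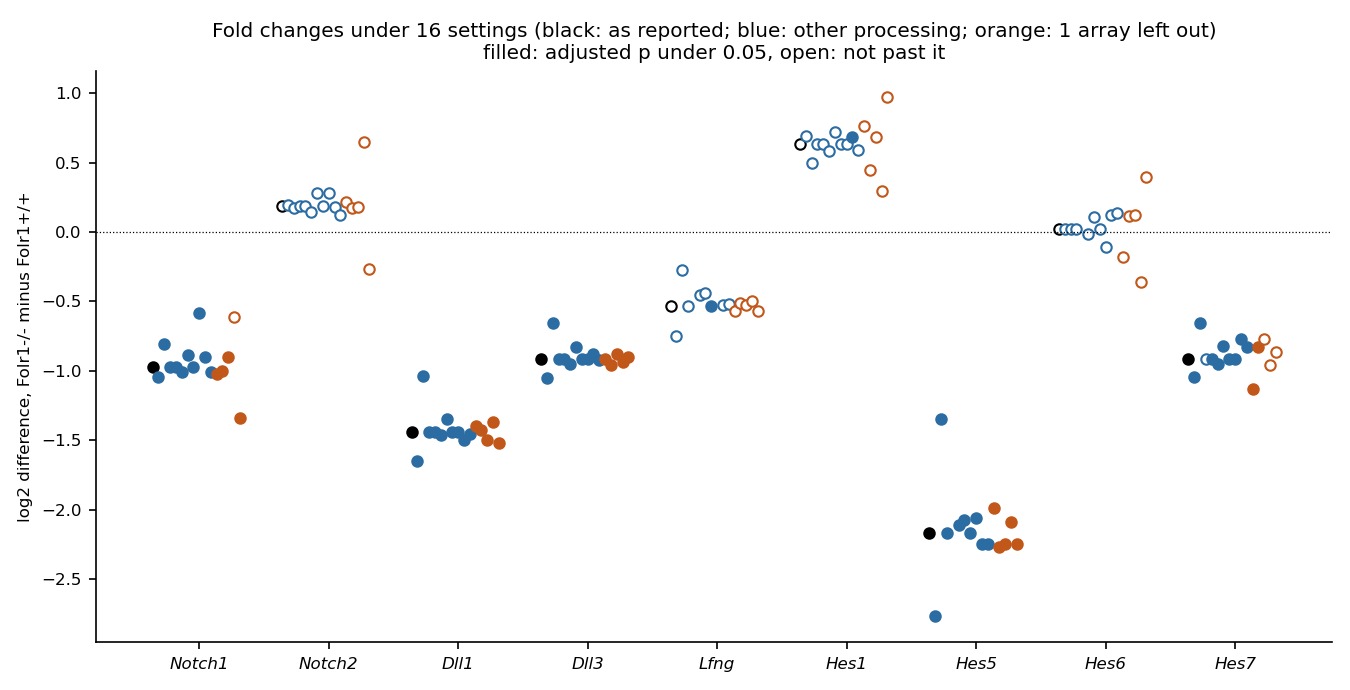
Log2 fold change of the 9 tested members as reported (black), under other processing (blue) and with 1 array left out (orange); filled points passed an adjusted p of 0.05, and each column holds up to 16 settings, those in which the gene was tested. Dll1, Dll3 and Hes5 are filled throughout, Notch1 and Hes7 have open points, and the points of Notch2 and Hes6 lie on both sides of 0.

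For each member that fell, the 3 genes with the most similar pattern were taken by the root mean square (RMS) difference of log2(signal + 16) over the 5 arrays, each gene centred on its own mean, among the other 7435 genes tested. For Hes5 these were Crabp2, a retinoic acid binding protein gene (RMS 0.16), Sfrp2, a secreted WNT antagonist gene (0.17), and Slc4a1, the gene of an anion exchanger of red cells (0.26), and for Dll1 they were Ermap, Fez1 and Fads1 (0.069 to 0.10). Dll3 was closest to Actn2, Hoxa3 and Arg1 (0.028 to 0.047), Hes7 to Msl1, Trp63 and Tada1 (0.076 to 0.083), and Notch1 to the ribosomal protein gene Rpl12, Nnat and Rpgrip1 (0.054 to 0.090). All 15 fell. Likeness over 5 arrays in 2 groups is mostly the group difference itself, and it describes these arrays only.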

How the data were processed

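The authors deposited 1 linear signal intensity for each probe set and array. MAS5 is named in the submitters' processing notes with no version. Detection calls were not used here. Per the labels' protocols, RNA was amplified in 2 rounds, which favours 3' ends, and labelled with biotin. The 2% trimmed mean signal was about the same on every array, and this scaling was kept. Of 22690 probe sets, 64 were controls, the platform annotation gave 20380 a single symbol and 691 more than 1, and did not list 1555.

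Each gene was represented by its brightest probe set, judged by the mean of log2(signal + 16) over the 5 arrays. Genes under the 40th percentile of that mean were left out, and 7436 of 12393 were tested with limma 3.58.1 in R 4.3.3 (lmFit, eBayes with an intensity trend, Benjamini-Hochberg). Genes dim in the Folr1-/- arrays, such as Hes5, Zic1 and Pax6, entered this test through their Folr1+/+ signals. A second fit took all 22626 probe sets with no filter. Fold changes understate those of dim genes. The code was tested on simulated arrays.

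The text names all members with each probe set. Of other pathway genes it names those past the threshold and, in roles with none, the 2 with the lowest p. Of each marker list it names at most 3 past the threshold by size of fold change, and the similar genes by the rule given with them. Adam10, Fbxw7, Maml1, Notch4, Dll4, Psen2, Spen, Tpbpa, the marker genes that did not pass and those of the closing section were named after their values were seen. The members and lists were chosen with earlier results of these data known. The alternatives were other pseudocounts, filters, scalings, variance models, probe set summaries, covariates and leaving out each array.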

Additional observations from a re-analysis of the deposited data

How the results depend on the processing

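Dll1, Dll3, Hes5 and Rbpj kept their direction and passed in every alternative setting in which they were tested (Hes5 was not tested with the filter at percentile 60). The count of members past the threshold was 5, and 3 to 5 when 1 array was left out, with the 3 (Dll1, Dll3 and Hes5) without Folr1-/- replicate 1. The count of other pathway genes was 3, and 1 to 3 when 1 array was left out. Over all genes it was 369 to 1007 when 1 array was left out, and over all probe sets 90 to 522, against 918. Of the 16 probe sets of the members 0 to 4 passed when 1 array was left out, with the 0 without Folr1-/- replicate 1. A fit that leaves out a Folr1-/- array assumes that the lone array varies like the Folr1+/+ arrays. With the replicate number as a block, 899 genes and 460 probe sets passed, as did 6 members with Hes1 added. The numbers do not mark a pairing in the labels, and deviations from the group means correlated at 0.019 for replicate 1 and -0.056 for replicate 2. Signs turned only in genes that did not pass: Hes6 with quantile normalization (-0.013), with the mean of its probe sets (-0.11) and without 1 array (-0.36 to 0.40), Notch3 with median centring (0.0016) and without 1 array (-0.42 to 0.24), Notch2 (-0.27 to 0.65), Hey2 (-0.031 to 0.18) and Tle1 (-0.74 to 0.068) without 1 array. The cause was not tested. Dim signals limit Jag1, Lfng and the second probe sets of Notch2, Lfng and Hes6.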

Other observations

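Of the 14 genes of the neural progenitor and early neuron lists that were too dim to test, 6 had both Folr1-/- signals below all Folr1+/+ signals and 8 overlapped, beside 21.99% below among all 4957 genes under the filter. By list, 1 of the 5 dim neural progenitor genes (Olig2) was below, or 20%, near the share of all genes. Among the dim early neuron genes it was 5 of 9, or 55.6%. Neurog2, a proneural factor that turns on Dll1, read 39.7, 59.9 and 51.6 in the Folr1+/+ arrays and 10.9 and 2.09 in the Folr1-/- arrays. Atoh1, a proneural factor of the dorsal neural tube, had 27.2, 42.0 and 19.4 against 6.61 and 10.8. Neurod1, a factor of young neurons, had 25.7, 31.4 and 29.4 against 14.3 and 13.6. Olig2, a factor of motor neuron progenitors, had 15.0, 18.1 and 21.5 against 0.522 and 0.606. Tubb3 and Elavl4, genes of young neurons, were the other two. Sox1, Zic2, Nkx6-1, Nkx2-2, Neurog1, Neurod4, Dcx and Elavl3 overlapped, with mean signals in Nkx6-1 of 15.1 in the Folr1+/+ and 19.4 in the Folr1-/- arrays. These genes were picked after their values were seen and carry no test.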
